A study of Mus musculus with 2 samples.

Results

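The members are 8 genes of mouse skeletal muscle: the Xin repeat genes Xirp1 and Xirp2, the nebulin-related gene Nrap, the myospryn gene Cmya5, the muscle ankyrin repeat genes Ankrd1, Ankrd2 and Ankrd23, and the small X-linked gene Smpx. They were taken by name from the annotated genes of the tables, and all 8 of 8 had reads in both libraries, among 14451 annotated genes with a read in either. The series holds 1 group of 2 long-read RNA libraries, labelled biological replicates 1 and 2, from the gastrocnemius of B6CASTF1/J mice. The mice were female and 18 to 20 months old, and 2 µg of RNA went into a library. They are first-generation hybrids of 2 mouse strains, and reads were not divided by parent allele. There was no other age, sex, tissue or treatment, and no muscle was stretched, so the only comparison possible is of 1 library with the other. Both labels give the same donor record and do not say how many animals a library came from. The binomial and Fisher p-values below compare these 2 libraries and know counting error only. A difference between the libraries may be technical.

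The genes belong to proteins that sit where contractile force is passed on. The muscle ankyrin repeat proteins bind titin, the giant spring of the sarcomere, in its I-band, and can move to the nucleus. Xirp1 and Xirp2 bind actin filaments through Xin repeats and are found at sites of fibre remodelling and at the junction of muscle and tendon. Nrap anchors actin filaments at the ends of myofibrils and acts in myofibril assembly. Cmya5 links desmin, dysbindin and protein kinase A at costameres and Smpx is a small protein of the costamere region. Several of these genes are known for a rise after stretch or injury, which these data do not measure.

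Replicate 1 held 1117891 reads of annotated endogenous genes and replicate 2 held 975696. A count of 0 allows up to 3 reads, or 2.68 and 3.07 counts per 1000000 of these reads (CPM). A long read was counted as 1 whatever its length, so CPM was not divided by length. Whether long and short molecules were recovered alike was not tested, and library ratios moved with transcript length, as given below. CPM of genes of unlike length therefore ranks reads and may not rank molecules. The tissue label was checked against its markers: the fibre genes Acta1 (skeletal alpha-actin) and Ckm (muscle creatine kinase) stood at 55480 ± 5506 and 58279 ± 4616 CPM (SD, n = 2). Of 7 heart muscle markers, Nppa, Nppb, Tnni3 and Ryr2 had 0 reads in both libraries, and all 7 together summed to 14.3 CPM in each library. All levels below are mean ± SD over the 2 libraries.

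The 8 genes took 5128 reads in replicate 1 and 4741 in replicate 2, or 0.459% and 0.486% of the reads of annotated genes. Ankrd23 alone supplied 66.3% of them in replicate 1 and 50.7% in replicate 2. With 3401 and 2403 reads (3042 and 2463 CPM, 2753 ± 410) it ranked 28th of all annotated genes by mean CPM. Nrap followed with 632 and 1011 reads (565 and 1036 CPM, 801 ± 333). Cmya5 had 423 and 588 reads (378 and 603 CPM, 491 ± 159).

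Xirp2 had 350 and 492 reads (313 and 504 CPM, 409 ± 135). The levels of Nrap and Cmya5 overlapped between libraries, as did those of Cmya5 and Xirp2, while Nrap lay above Xirp2 without overlap. Within each library the order was Nrap, Cmya5, Xirp2. Smpx had 193 and 106 reads (173 and 109 CPM, 141 ± 45.3) and lay below all 3 in both libraries. Xirp1 had 72 and 67 reads (64.4 and 68.7 CPM, 66.5 ± 3.01), the smallest relative spread of the group. Ankrd2 had 41 and 72 reads (36.7 and 73.8 CPM, 55.2 ± 26.2) and overlapped with Xirp1. Ankrd1 had 16 and 2 reads (14.3 and 2.05 CPM, 8.18 ± 8.67) and was lowest in both libraries. The replicate 2 value of Ankrd1 lies under the level that a count of 0 allows.

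**Figure D1:**
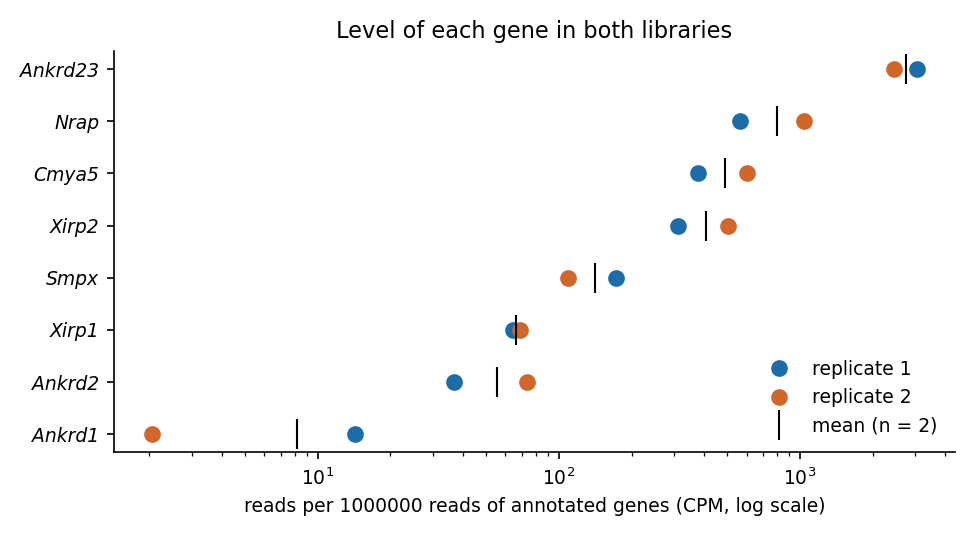
Level of each gene in both libraries, in reads per 1000000 reads of annotated genes on a log axis; points are libraries and bars are means of 2. Ankrd23 lies at 3042 and 2463 CPM and Ankrd1 at 14.3 and 2.05 CPM, while Xirp1 is the gene whose points nearly coincide.

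The 3 muscle ankyrin repeat genes thus spanned the whole range of the group in this muscle. In all 3 genes, exons 5 to 8 of the leading transcript are 99 bases each, 4 in a row, a length that 0.959% of 175421 internal coding exons of the annotation share. Base by base and without gaps, exon 7 of Ankrd1 and Ankrd2 was 63.6% identical, that of Ankrd1 and Ankrd23 62.6% and that of Ankrd2 and Ankrd23 54.5%. Over the 4 exons, pairwise identity ran from 53.5% for exon 8 of Ankrd1 and Ankrd23 to 67.7% for exon 6 of Ankrd2 with Ankrd1 and with Ankrd23. Exon 7 is printed here because it was the only one of the 4 that reads left out alone, with both neighbours joined. The sequences are of mm10 from the annotated transcripts, in the sense of the gene, and capitals mark the 45 bases that all 3 genes share:
Ankrd1 exon 7, chr19:36115199-36115297, minus strand: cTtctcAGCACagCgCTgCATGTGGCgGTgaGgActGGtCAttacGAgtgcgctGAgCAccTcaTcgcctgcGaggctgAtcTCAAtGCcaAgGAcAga
Ankrd2 exon 7, chr19:42043753-42043851, plus strand: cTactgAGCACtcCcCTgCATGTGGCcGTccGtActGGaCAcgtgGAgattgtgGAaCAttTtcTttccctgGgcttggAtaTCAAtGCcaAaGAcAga
Ankrd23 exon 7, chr1:36531909-36532007, minus strand: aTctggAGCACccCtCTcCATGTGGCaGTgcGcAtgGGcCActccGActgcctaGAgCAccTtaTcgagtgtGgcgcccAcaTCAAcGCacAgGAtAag

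Exon 7 of Ankrd23 was skipped alone in 5 of 3142 reads of replicate 1 (0.159%, Wilson 95% interval 0.068 to 0.372%) and in 3 of 2239 of replicate 2 (0.134%). Exons 5, 6 and 8 of Ankrd23 were each skipped alone in 0 reads of either library, which allows up to 3 reads of 3056 or more in replicate 1 and of 2212 or more in replicate 2. An unannotated intron that leaves out exons 4 to 8 together was held by 9 reads of replicate 1 and 1 of replicate 2. With it, exon 7 was spliced over in 14 and 4 reads (0.446% and 0.179%). In Ankrd2, exon 7 was spliced over in 3 of 39 reads of replicate 1, in 1 of them together with exon 6, and in 0 of 61 of replicate 2. In Ankrd1, all 15 spanning reads of replicate 1 and both of replicate 2 held all 4 exons. The ankyrin repeat exons were thus nearly always kept. Inclusion with both boundaries exact ran in Ankrd23 from 95.8% ± 0.493 for exon 7 to 98.8% ± 0.393 for exon 5. A retained intron or a shifted boundary also lowers this value, so the rest is not all skipping.

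Introns 5, 6 and 7 of Ankrd23 were each retained in more reads than any of exons 5 to 8 was spliced over. An intron counts as retained where an exon of the read's model covers it whole. Intron 6, of 104 bases, was retained in 88 of 3110 reads of replicate 1 (2.83%, 2.30 to 3.47%) and 51 of 2223 of replicate 2 (2.29%, 1.75 to 3.00%). Intron 7, of 87 bases, was retained in 42 of 3121 and 29 of 2246 reads (1.35% and 1.29%). Intron 5, of 91 bases, was retained in 25 of 3082 and 15 of 2229 reads (0.811% and 0.673%). Intron 8, of 81 bases and the shortest, was retained in 7 of 3141 and 2 of 2254 reads (0.223% and 0.0887%). Among all annotated introns of 101 to 150 bases with at least 20 informative reads in each library, the median retained share was 0% and the 90th percentile 1.63%, and among those of up to 100 bases 0% and 2.33%. Intron 6 lay above the 90th percentile of its length class, and introns 5, 7 and 8 lay below theirs. The share of intron 6 was above 97.1% of the 34288 introns measured, and the intervals of the 2 libraries overlapped. Of those introns, 29 (0.0846%) differed between libraries (Fisher's exact test, Benjamini-Hochberg adjusted over all of them), and 0 of the 79 introns of the 8 genes did.

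Ankrd23 reads that joined a first exon to exon 2 used almost always that of the annotated near start. Over all reads of the gene, 2792 of 3401 and 2019 of 2403 (82.1% and 84.0%) held its first annotated intron. Of reads with an intron into exon 2, 2792 of 2896 in replicate 1 (96.4%) and 2019 of 2075 in replicate 2 (97.3%) came from exon 1 of Ankrd23-201, and 2 and 1 from the upstream exon 1 of Ankrd23-202. An unannotated donor 98 bases past that of exon 1 was used in 85 and 43 reads (2.94% and 2.07%). Another unannotated donor, further inside intron 1, was used in 14 and 8 reads. Where the exons before these donors begin was not measured. The RefSeq start windows (GRCm38.p6; 250 bases before to 50 after the start) of both annotated starts are printed because use of the 2 differed so widely. Capitals mark matches of the E-box CANNTG and of the MCAT element CATTCC on either strand:
Ankrd23 near start, chr1:36535690-36535989, minus strand: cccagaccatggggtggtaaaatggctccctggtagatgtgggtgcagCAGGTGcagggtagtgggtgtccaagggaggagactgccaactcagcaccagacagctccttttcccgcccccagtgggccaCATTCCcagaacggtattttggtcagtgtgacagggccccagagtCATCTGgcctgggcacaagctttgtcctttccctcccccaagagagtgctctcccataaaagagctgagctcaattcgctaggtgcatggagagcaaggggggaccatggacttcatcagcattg
Ankrd23 upstream start, chr1:36536507-36536806, minus strand: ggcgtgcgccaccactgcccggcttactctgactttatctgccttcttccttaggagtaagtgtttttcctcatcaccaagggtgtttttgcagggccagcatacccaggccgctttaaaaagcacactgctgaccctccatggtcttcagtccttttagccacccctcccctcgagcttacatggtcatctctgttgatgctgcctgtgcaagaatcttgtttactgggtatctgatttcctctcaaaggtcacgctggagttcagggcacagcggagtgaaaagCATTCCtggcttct

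The near start window held 2 E-box matches and 1 MCAT match, and the upstream one 0 and 1. RefSeq windows were matched for 7 of the 8 genes, 8 windows in all. E-box matches were in 6 of the 8 (75%), against 72.3% of all 32851 windows of this length. MCAT matches were in 3 of the 8, both of Ankrd23 and that of Ankrd1, which held 2 matches, against 14.7% of all windows. A match is a stretch of letters and no evidence of binding.

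Of the Ankrd23 reads, 2624 in replicate 1 and 1893 in replicate 2 carried the complete chain of Ankrd23-201, its leading isoform. That is 90.7% and 91.1% of its reads in the classes Known (an annotated chain), NIC (annotated sites in an unannotated combination) and NNC (with an unannotated site). On the 3′ side, a single-exon model named Ankrd23 took 238 and 135 reads (7.00% and 5.62% of the gene). It covered positions 36529221 to 36530534 of chromosome 1 in replicate 1 and 36529209 to 36530534 in replicate 2. That is 967 and 979 bases past the furthest annotated end of the gene, 36530188. The model overlapped Ankrd23-201 by no more than the last base of its last exon. In all, 3 models with 338 reads in replicate 1 and 8 with 281 in replicate 2 ended past 36530188, this one included. The others of these were spliced models of Ankrd23. Whether the single-exon reads came from Ankrd23 molecules was not tested. Ankrd2 was read mostly as the chain shared by Ankrd2-201 and Ankrd2-202, with 33 of 36 and 52 of 56 reads of these classes (91.7% and 92.9%). Ankrd1 was read as Ankrd1-205 in 13 of its 16 reads in replicate 1 and both reads of replicate 2.

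Nrap, of 42 exons and 5501 bases, is built mainly of repeated exons of 105, 99 and 108 bases, and reads of it differed most at 2 internal places. The first was exon 12, of 105 bases, a multiple of 3, whose sequence is printed because its use was the clearest choice between complete isoforms in the group:
Nrap exon 12, chr19:56374364-56374468, mm10, minus strand: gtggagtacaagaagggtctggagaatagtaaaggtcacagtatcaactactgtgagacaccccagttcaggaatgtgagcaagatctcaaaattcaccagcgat

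Exon 12 was included in 223 of 291 spanning reads of replicate 1 (76.6%, 71.4 to 81.1%) and 362 of 516 of replicate 2 (70.2%, 66.1 to 73.9%), 73.4% ± 4.58. The intervals overlapped, and the difference did not pass Fisher's exact test after adjustment over 32861 exons (adjusted p = 1), of which 49 (0.149%) did and 0 of the 71 exons of the 8 genes. The median inclusion of all exons measured was 99.7%. The complete chain with exon 12, Nrap-202, had 103 and 164 reads, and the chain without it, Nrap-201, had 28 and 70.

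The second place was the acceptor of exon 6. An acceptor that GENCODE M21 does not hold, 3 bases before the annotated one, was used in 107 of 257 reads of replicate 1 (41.6%, 35.8 to 47.7%) and 179 of 454 of replicate 2 (39.4%, 35.04 to 44.0%). It lengthens exon 6 by 3 bases between the last bases of exon 5, in lower case, and the annotated first bases of exon 6, in capitals, where the annotated joint reads:
Nrap exon 5 to exon 6, exon 6 at chr19:56382260-56382364, mm10, minus strand: cagtctctcggtgagGGGTACACAGAAGAC

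Both acceptors went with both forms of exon 12. In replicate 1, exon 12 was kept in 116 of 150 reads with the annotated acceptor (77.3%) and 86 of 107 reads with the other (80.4%). In replicate 2 it was kept in 197 of 275 (71.6%) and 131 of 179 (73.2%). All 4 combinations of the 2 places were therefore read as complete molecules: beside Nrap-202 and Nrap-201, the added-base acceptor had 76 and 104 reads with exon 12 and 13 and 40 without it. The submitters' classes named the first of these as NIC in replicate 1 and as NNC in replicate 2, so the class shares of Nrap are not comparable between libraries, while the matched introns are. A rarer choice was exon 36, also of 105 bases, which was spliced over in 30 of 538 spanning reads of replicate 1 (5.58%, 3.93 to 7.85%) and 45 of 964 of replicate 2 (4.67%, 3.51 to 6.19%).

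Complete reads were a minority for Nrap. Spliced reads began in exon 1 in 239 and 432 cases (40.9% and 43.7%). The next most frequent first exon was exon 18, of 102 bases, with 56 and 111 reads (9.59% and 11.2%). In replicate 1, exons 24, 35 and 40, each of 312 bases, followed with 4.97%, 4.11% and 3.94% of spliced reads. In replicate 2 those shares were 3.85%, 3.34% and 1.42%, and exon 19 with 3.95% came before them.

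**Figure D2:**
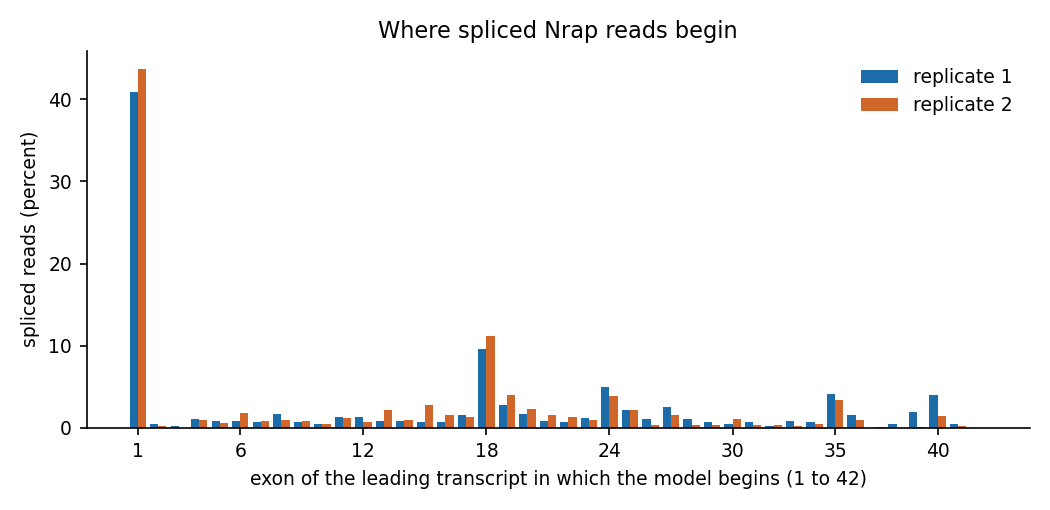
Share of spliced Nrap reads (percent) by the exon of Nrap-202 in which their model begins; bars are the 2 libraries. Exon 1 holds 40.9% and 43.7% of reads, and exon 18 the next highest share in both libraries.

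Xirp2, Cmya5 and Xirp1 share a feature that the choice of genes did not use. Each carries most of its coding sequence in 1 giant exon: 94.1% in exon 7 of Xirp2 (9265 bases), 84.4% in exon 2 of Cmya5 (9310 bases) and 99.8% in exon 2 of Xirp1 (3394 bases). Among 175421 internal coding exons of the annotation, those of Cmya5 and Xirp2 rank 5th and 6th in length and that of Xirp1 ranks 115th. Reads of Cmya5 and Xirp2 rarely crossed the giant exon. The first annotated intron was held by 52 of 423 and 41 of 588 reads of Cmya5 (12.3% and 6.97%) and by 4 of 350 and 2 of 492 reads of Xirp2 (1.14% and 0.407%). For Xirp1, whose giant exon is shorter, it was held by 36 of 72 and 38 of 67 reads (50% and 56.7%).

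Many reads began inside the giant exon. For Cmya5 these were 245 and 455 reads (57.9% and 77.4%), and for Xirp2 126 and 238 (36% and 48.4%), against 9 of 72 and 14 of 67 for Xirp1 (12.5% and 20.9%). The Wilson intervals of the libraries lay apart for Cmya5 (53.2 to 62.5% and 73.8 to 80.6%) and Xirp2 (31.1 to 41.2% and 44.0 to 52.8%). Those of Xirp1 overlapped. For the first intron, the intervals lay apart in Cmya5 (9.50 to 15.8% and 5.18 to 9.32%) and overlapped in Xirp2. These shares were not tested between the libraries. Xirp2 was also read as single-exon models in 215 and 248 reads (61.4% and 50.4%). Its complete chain, Xirp2-202, had 3 and 1 reads, and 1 read in each library joined exon 6 to exon 8 without the giant exon, by an unannotated intron. Only 7 and 4 reads reached exon 6 and spanned the giant exon, and 6 and 3 of these included it. The complete Cmya5-201 had 42 and 37 reads. How much of the coding part upstream of the giant exon's 3′ portion was present in the tissue could therefore hardly be read for Xirp2 at this depth.

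What could be read of Xirp2 was its 3′ end. All 132 reads of replicate 1 and all 241 of replicate 2 that join exon 7 to exon 8 used the acceptor of Xirp2-202, and 0 the one of Xirp2-201, which allows up to 3 reads in each. The 2 acceptors differ by 16 bases and by where the annotated coding part ends: at position 67519311 in Xirp2-202, inside exon 8, and at 67526248 in Xirp2-201, in the last exon. The joint is printed with the 16 bases that the reads held in capitals:
Xirp2 exon 7 to exon 8, added bases at chr2:67519220-67519235, mm10, plus strand: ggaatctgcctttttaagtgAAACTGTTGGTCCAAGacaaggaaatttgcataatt

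Xirp1 was read as the complete Xirp1-201 in 28 and 35 reads. An unannotated acceptor that drops the first 3 bases of exon 2 was used in 12 of 48 reads of replicate 1 (25%, 14.9 to 38.8%) and 8 of 46 of replicate 2 (17.4%, 9.09 to 30.7%). The dropped bases lie before the start codon, in the untranslated part:
Xirp1 exon 1 to exon 2, dropped bases at chr9:120019817-120019819, mm10, minus strand, in capitals: gccagacccttgAAGgatggctgatgcc

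Intron 2 of Xirp1, of 391 bases, was retained in 10 of 58 reads of replicate 1 (17.2%, 9.64 to 28.9%) and 3 of 60 of replicate 2 (5%, 1.71 to 13.7%), with overlapping intervals and adjusted p = 1 by Fisher's exact test. Its mean share, 11.1% ± 8.66, was above that of 98.9% of all introns measured and was the highest of the 79 introns of the 8 genes. Of the 71 member exons measured, 4 had an exact inclusion under 90%, as 10.6% of all exons did. Among these 4, exon 12 of Nrap was the only one mainly lost as a whole. The others, exon 6 of Nrap, exon 2 of Xirp1 and the Xirp2-201 form of exon 8, mainly had a shifted boundary or, for Xirp1, a retained intron. In 1 Xirp1 read of replicate 1, an unannotated intron that ends past the annotated gene spliced over exon 2.

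Smpx, of 1152 bases, was read almost whole, with its first intron in 176 of 193 and 96 of 106 reads (91.2% and 90.6%). Its isoforms differed by a 35-base exon after the coding part, at chrX:157751595-157751629 of mm10. The exon was included in 135 of 182 spanning reads of replicate 1 (74.2%, 67.4 to 80.0%) and 81 of 98 of replicate 2 (82.7%, 74.0 to 88.9%), 78.4% ± 5.99. With it the chain is that of Smpx-201 and Smpx-208 (126 and 79 reads), annotated as nonsense-mediated decay and as protein coding; without it the chain is that of Smpx-203 (46 and 15 reads). The leading isoform share was 70.4% and 80.6% (adjusted p = 1, Fisher's exact test). Over all genes 16 of 3297 (0.485%) differed in that share, and 0 of the 6 members tested.

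**Figure D3:**
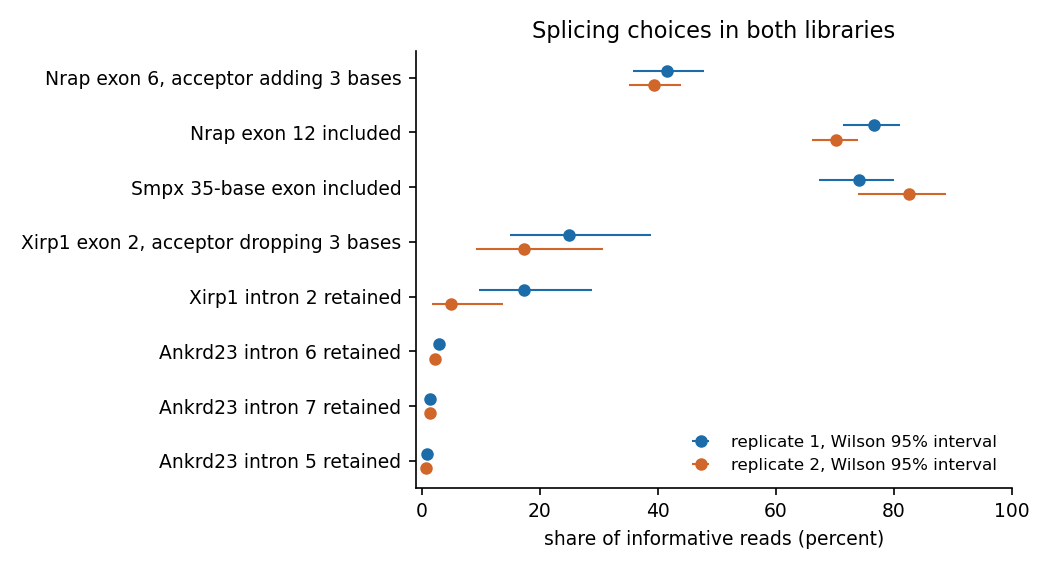
Share of informative reads (percent) for 8 splicing choices, with Wilson 95% intervals; points are the 2 libraries. The intervals of the libraries overlap for all 8 choices drawn. Nrap exon 12 and the 35-base exon of Smpx lie highest, the Nrap acceptor lies at 41.6% and 39.4%, and the Ankrd23 introns lie near 0.

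The share of incomplete chains (incomplete splice matches, ISM: part of a transcript's chain of introns) was taken over reads with an intron, since the classes named single-exon reads unevenly. It was 1.09% ± 1.55 in Smpx, 8.42% ± 0.121 in Ankrd23, 14.3% ± 2.99 in Ankrd2, 30% ± 2.36 in Xirp1, 56.1% ± 1.59 in Nrap, 89.1% ± 2.64 in Cmya5 and 97.7% ± 2.04 in Xirp2. Ankrd1 had 2 such reads of 15 in replicate 1 and 0 of 2 in replicate 2. The 4 genes of 5501 bases or more all lay above the 4 of 2020 or fewer. Within them the order did not follow length: Ankrd2, of 1138 bases, lay above Ankrd23, and Nrap, of 5501, above Xirp1, of 5839. Single-exon reads were named ISM in Xirp2 (214 of 215 and 247 of 248) and Genomic in Xirp1, Ankrd23 and Smpx. In Nrap and Cmya5 the name changed from ISM in replicate 1 (45 of 45 and 53 of 54) to Genomic in replicate 2 (18 and 33). With single-exon reads counted, the median ISM share over 4057 genes was 5.63% and 5%, and the share differed between libraries in 126 of 4057 genes (3.11%) and in 0 of the 7 members tested (smallest adjusted p = 0.227, Nrap, Fisher's exact test). That share does not show where reads begin. For Cmya5 and Xirp2, the intervals of reads that began in the giant exon lay apart, as given above.

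**Figure D4:**
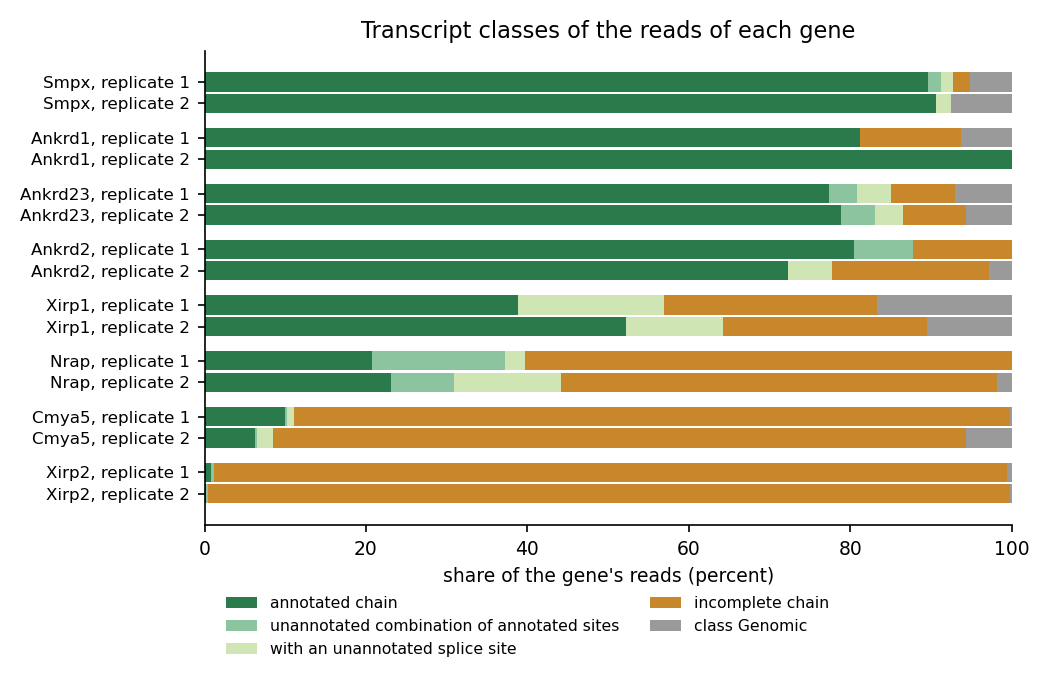
Share of each gene's reads (percent) by the submitters' transcript classes (Genomic is their own name for the last), with 1 bar per library. With single-exon reads counted, the incomplete chains grow from Smpx at the top (1.04% on average) to Xirp2 at the bottom (98.8%).

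Between the libraries, 7 of the 8 genes differed in level by an exact 2-sided binomial test that knows counting error only, with Benjamini-Hochberg adjustment over 8394 genes; 980 of all genes tested did (11.7%), and 29.5% of the 2375 genes with at least 100 reads, a depth that all members but Ankrd1 reach. Nrap was 1.98-fold higher in replicate 2 (exact 95% interval 1.80 to 2.20, adjusted p = 1.6e-40). Xirp2 was 1.74-fold higher in replicate 2 (1.52 to 2.01, adjusted p = 9.8e-14). Cmya5 was 1.72-fold higher there (1.52 to 1.96, adjusted p = 7.7e-16). These 3 long genes moved the same way and by much the same amount.

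Ankrd2 was 2.18-fold higher in replicate 2 (1.46 to 3.28, adjusted p = 0.0011). Ankrd23 and Smpx were higher in replicate 1, by 1.14-fold (1.08 to 1.20, adjusted p = 2.2e-05) and 1.47-fold (1.15 to 1.88, adjusted p = 0.016). Ankrd1 was 6.45-fold higher in replicate 1, on 16 reads against 2, with an interval from 1.52 to 57.8 (adjusted p = 0.035). Xirp1 was 1.15-fold higher in replicate 2 by value (0.815 to 1.63, adjusted p = 0.71) and was not called. Higher levels were called in replicate 1 for 3 members and in replicate 2 for 4, against 4.61% and 7.06% of all genes.

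An edgeR exact test that uses a common dispersion for all genes called 24 of 8394 genes (0.286%) and 0 of the 8 members, with adjusted p from 0.889 for Ankrd1 to 1. In that test 1 of the 8, Ankrd1, had an unadjusted p under 0.05, and in the binomial test 7. That dispersion came from the same libraries. Library ratios also moved with transcript length: the log2 ratio (replicate 1 over replicate 2) had a median of 0.31 in genes under 1000 bases and -0.39 in genes of 4000 to 8000. Set against the 300 genes nearest in length, Nrap, Cmya5, Xirp2 and Ankrd2 were still called higher in replicate 2 (adjusted p = 1.3e-12, 9.1e-04, 0.0019 and 1.7e-05), and Ankrd23, Smpx and Ankrd1 were not (0.66, 0.43 and 0.075). In that comparison 8.58% of all genes were called, and 5.13% higher in replicate 2. With only the classes Known, NIC and NNC counted, 4 of the 7 members tested were called against 12.3% of all genes. By this binomial test Nrap kept its call, while Cmya5 lost it (log2 ratio -0.39, adjusted p = 0.48), as did Ankrd1 (adjusted p = 0.11). Xirp2 had too few reads of these classes to be tested. The calls of Cmya5 and Xirp2 thus rest mainly on reads of incomplete chains.

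**Figure D5:**
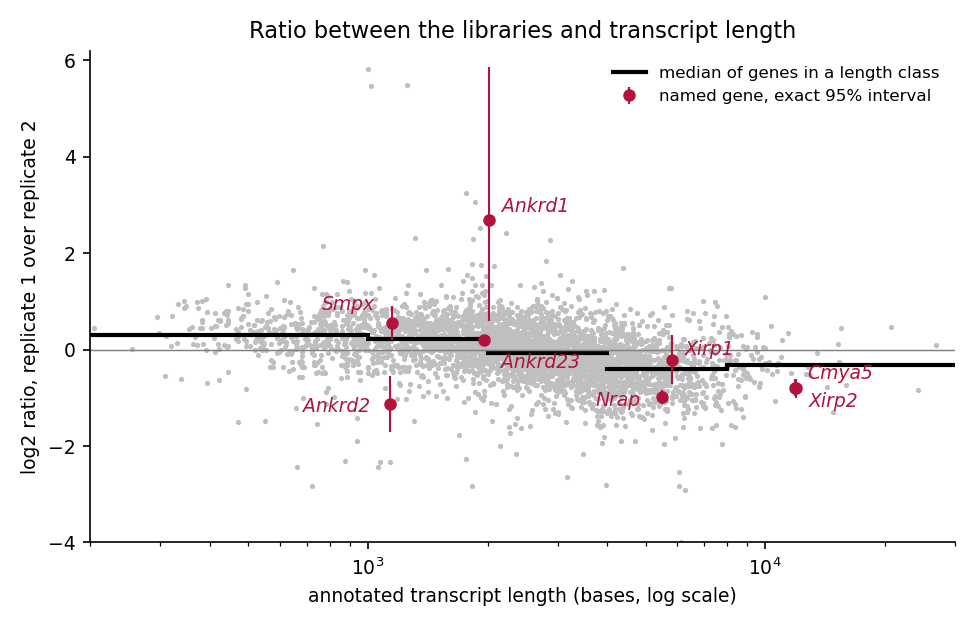
Log2 ratio of replicate 1 over replicate 2 against annotated transcript length in bases on a log axis; grey points are genes with at least 50 reads, black lines medians of length classes, red points the 8 genes with exact 95% intervals. Cmya5 and Xirp2 nearly coincide at the right, below the median of their class, as does Nrap; Ankrd2 lies far below short genes of its length.

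Genes of slow and oxidative fibres moved between the libraries beside Ankrd2, which is known as the family member enriched in slow fibres. All 11 of 11 genes of that list were higher in replicate 2, with a median log2 ratio of -2.43 against -0.003 over all genes, and summed to 1140 CPM in replicate 1 and 7636 in replicate 2. Of them, Myh7 (slow myosin) had 183 and 2330 reads (15.8-fold), Myh2 (the fast oxidative myosin) 349 and 1987 (7.06-fold), Tnnc1 (slow troponin C) 105 and 605 (7.15-fold), and Atp2a2 (the slow calcium pump) 81 and 455 (6.97-fold). Of the 11 genes, 7 were also called by the edgeR exact test. Of 10 fast fibre genes, 5 were called higher in each library. Among those higher in replicate 2, Myh1 (a fast myosin) had 1520 and 7086 reads (5.78-fold). It was the only 1 of the 10 also called by the edgeR exact test. The part of fibre makeup in the Ankrd2 difference was not tested, and in whole tissue, fewer fibres of a type and less RNA per fibre cannot be told apart.

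Partners of the proteins differed in both directions by the binomial test, which called 11.7% of all genes, while the edgeR exact test called 0 in each of the 3 partner lists. Of 10 titin and I-band partners of the ankyrin repeat proteins, 2 were higher in replicate 2, Ttn (titin itself, 1.97-fold) and Tcap (telethonin, 1.11-fold), 2 in replicate 1, Smyd2 (a methyltransferase of the I-band, 1.62-fold) and Sqstm1 (an autophagy receptor, 1.52-fold), and 6 were not called. Of 12 Nrap and Cmya5 partners, 4 were called and all were higher in replicate 2: Actn2 (alpha-actinin of the Z-disc, 2.52-fold), Csrp3 (the LIM protein MLP, 4.96-fold), Prkar2a (a protein kinase A subunit, 1.82-fold) and Tln2 (a talin, 1.71-fold). Of 10 tested Xin and filamin partners, 3 were higher in replicate 2, Actn2, Flnc (filamin C, 1.5-fold) and Synpo2 (a Z-disc protein, 1.23-fold), and 1 in replicate 1, Hspb8 (a small heat shock protein, 1.72-fold); Nebl had 0 reads. Relative to genes of like length Tln2, Flnc and Synpo2 were not called (adjusted p = 0.54, 0.58 and 0.77), and the log2 ratio of Synpo2 turned to 0.08. These lists' median log2 ratios were -0.09, -0.31 and -0.41.

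Of 16 genes listed as responding to stretch or to YAP, a transcription cofactor, 11 were tested. The binomial test called 3 of these, against 11.7% of all genes. All 3 were higher in replicate 2: Fhl1 (a LIM protein bound to titin, 3.30-fold), Csrp3 and Rcan1 (a calcineurin regulator, 1.46-fold). The edgeR exact test called 0 of them. Ccn1 and Ccn2, which are YAP targets, stood at 23.9 ± 0.410 and 6.65 ± 0.712 CPM and were not called, and Nppb had 0 reads. The list's median log2 ratio was -0.30. Ankrd1, also known as a YAP target, was the lowest of the 8 genes.

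Markers of other cells were low or mixed beside these values. Of the myotendinous junction markers that are no members of the group, Itgb1 had 158 and 134 reads and Itga7 60 and 65. Col22a1 (a collagen of that junction) had 9 reads in each library, Lama2 3 and 10, and Tigd4 2 and 1. None of these was called by the binomial test. The 8 markers of the list, Xirp1, Nrap and Ankrd1 included, summed to 852 and 1331 CPM, of which Nrap alone held 565 and 1036. Tenocyte markers summed to 179 and 160 CPM with Scx higher in replicate 1 (2.92-fold) and Col1a1 in replicate 2 (3.56-fold), and Tnmd had 1 and 3 reads. Fmod (56 and 23 reads), Thbs4 (41 and 21) and Comp (14 and 7) were higher in replicate 1 by value and were not called. The median log2 ratio of the tenocyte list was 0.69. Fibroblast markers summed to 2306 and 2029 CPM, of which Gsn (gelsolin) held 1989 and 1617, with 2 of the 5 called in each direction, among them Col3a1 (3.91-fold higher in replicate 2) and Dcn (1.71-fold higher in replicate 1). Of 4 macrophage markers, Lyz2 (a lysozyme) had 43 and 7 reads (4.95-fold higher in replicate 1), Csf1r 8 and 5, Adgre1 0 and 1, and Cd68 0. Of 4 satellite cell markers, Pax7 had 0 reads, Myf5 1 in each library, Vcam1 3 and 4, and Cdh15 58 and 33. Only Cdh15 had enough reads to be tested, and it was not called. Myod1 (a myogenic regulator) had 52 and 5 reads and was called higher in replicate 1 by the binomial test. Myog, also a myogenic regulator, had 61 and 28 reads and was not called. Myh3 and Myh8 (developmental myosins) had 10 reads or fewer over both libraries. The part of these markers in the differences of the 8 genes was not tested.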

How the data were processed

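Long reads of 2 libraries were used. The deposited tables give raw counts of reads per transcript model as the authors made them, 1 table per library; per the file headers, the other deposited columns hold names, classes, exon numbers and lengths. Per the labels, the build is mm10. Models are those of GENCODE M21 and others that each library added. For the aligner and for tool versions, nothing is given in the sources used here.

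The members, lists and tests were chosen with earlier results of these data known. Named were all 8 genes, their models with at least 5 reads, exons under 90% inclusion, and at most 6 called genes per list. A gene count summed all models. A gene was tested from 10 reads in total, against TMM effective library sizes (edgeR 4.0.16, R 4.3.3; factors 1.04 and 0.961), threshold 0.05. Shares needed at least 20 reads in each library. Models were matched by intron chain, since single models take their ends from few reads. The intron retention and length comparisons, and ISM shares over reads with an intron, were added after seeing the data. Intervals cover counting error only. Alternatives included DESeq2 1.42.0 size factors. Procedures (Python 3.11.15, scipy 1.17.1) were tested on simulated data.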

Additional observations from a re-analysis of the deposited data

Results flagged for a closer look

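Reads outside the counts of the 8 genes were singled out where they exceeded the 3 reads that a count of 0 allows. On the strand opposite to Nrap there were 7 reads in replicate 1 and 4 in replicate 2. In each library, 4 of these belonged to a locus at chr19:56372914-56378171 of mm10. It spans exon 11, exon 12, the introns on both sides of exon 12, and the first base of exon 13. Opposite to Cmya5 there were 7 reads in replicate 1 and 10 in replicate 2, with 4 in each library in a locus that ends at position 93108098 of chromosome 13. Opposite to Ankrd23 there were 5 reads in replicate 1. In replicate 2, 8 reads with introns of Cmya5 were named as Tent2, the neighbouring gene: 1 read joined both genes in 14 exons, and 7 held 6 exons of Cmya5 only. In replicate 1 the chain of 6 exons had 11 reads, all named Cmya5.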

How the results depend on the processing

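Of the 8 genes, 7 were called between the libraries; 4 of the 7 then tested were called with only Known, NIC and NNC models, 4 relative to genes of like length, and 0 in the edgeR exact test with common dispersion, which called 24 of all genes. Xirp1, never called, turned from higher in replicate 2 to higher in replicate 1 (log2 ratio 0.25) relative to genes of like length; the other 7 kept their direction in all settings run. Ankrd1 lost its call with every gene of at least 1 read tested (adjusted p = 0.059; range over settings 0.031 to 0.889). With only Known, NIC and NNC models, mean levels were 47.0 CPM for Xirp1, 3.28 for Xirp2, 397 for Nrap and 54.3 for Cmya5, which follows from leaving out the ISM and Genomic classes; the other 4 levels moved by less than their SD. Over all genes, the leading isoform differed in 25 with a minimum of 50 reads and in 5 with Known models only, and exon inclusion in 26 exons with Known, NIC and NNC models only; 0 members were called in any of these. No paired analysis was possible because there is 1 group. Depth limits Ankrd1 (18 reads) and complete molecules of Xirp2 (4 reads) most.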
